A study of Sus scrofa with 4 samples.

Results

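Hyaluronan is a long, unbranched sugar polymer of the extracellular matrix, and the genes described here make it, break it down or bind it. Of the 29263 genes in each count table, 10 were taken by name: the synthases HAS1, HAS2 and HAS3, the matrix binders VCAN and TNFAIP6, the receptors CD44 and LAYN, and the breakdown genes HYAL1, HYAL2 and CEMIP. All 10 were found. HAS2 stands in the tables under its porcine symbol SHAS2, which the RefSeq gene table (Sscrofa11.1) gives with Has2 as a synonym. The other 9 stand under the names given here.

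The libraries were made from lung cells of pigs of the LGR5-H2B-GFP knock-in genotype, whose green fluorescent histone reports LGR5, a receptor that amplifies Wnt signalling. Flow sorting gave a brightly fluorescent fraction (GFP-HI, 2 biological replicates) and a fraction without fluorescence (GFP-NEG, 2 biological replicates), so both fractions carry the knock-in and the controls are not wild-type animals. The GFP-NEG fraction holds lung cells that did not fluoresce, and whether they were selected further is not stated. A histone label can outlast transcription of the gene it reports. The labels cover adult and fetal lung together and give no age for single libraries, while the authors' deposited table of the comparison has adult in its name. Sorting antibodies against EPCAM and NGFR are named without saying whether they were used for these libraries.

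Total counts ranged from 24200550 to 24689986 in GFP-HI and from 6292253 to 7045652 in GFP-NEG, so 1 count was worth about 0.0453 to 0.0496 counts per 1000000 counts of tested genes (CPM) in GFP-HI and 0.110 to 0.155 CPM in GFP-NEG. Genes with a count numbered 18752 and 18392 in GFP-HI versus 24120 and 25985 in GFP-NEG, although GFP-NEG had fewer counts in total. LGR5 was at 146 and 152 CPM in GFP-HI versus 1.55 and 0.767 CPM in GFP-NEG, in the direction of the labels. Markers of other cells differed between the fractions. The 8 fibroblast markers (PDGFRA, PDGFRB, COL1A1, COL1A2, COL3A1, DCN, LUM and TCF21) summed to 79018 and 68816 CPM in GFP-HI versus 25159 and 8969.8 CPM in GFP-NEG. PTPRC, the pan-leukocyte marker, was at 45.9 and 121 CPM in GFP-HI versus 687 and 1214 CPM in GFP-NEG. In these bulk samples, fewer cells of a type and less RNA per cell cannot be told apart.

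Hyaluronan is made at the plasma membrane by the 3 HAS enzymes, which extend the chain from 2 nucleotide sugars and push it out of the cell as it grows. Outside, it is held in matrix by proteoglycans such as versican (VCAN) and by proteins that carry a link module, among them the TNFAIP6 product TSG-6, which also transfers heavy chains of the inter-alpha-inhibitor family onto hyaluronan. Cells grip it through CD44 and layilin (LAYN), and it is cut by hyaluronidases and by CEMIP before its pieces are digested in lysosomes. In lung, this polymer is known from the loose matrix around vessels and airways and from the response to injury.

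All 10 genes passed the filter on low counts, and 4 of them were higher in GFP-HI with adjusted p below 0.05 (quasi-likelihood test of edgeR, Benjamini-Hochberg over 19682 genes): HAS1, HAS2, VCAN and TNFAIP6. None of the 10 was lower. Over all tested genes, 8.35% were higher and 27.6% lower in GFP-HI by the same test. Genes without a symbol are among them, and shares over genes with a symbol alone were not taken. The authors' deposited table holds 16250 genes, 9 of the 10 among them. In it, 8.20% of genes were higher and 11.2% lower at an adjusted p under 0.05, so the share of lower genes depends on the background. At an unadjusted edgeR p under 0.05, 0 of the 10 were lower as well, but the share of all tested genes at that threshold is not given here. DESeq2 called 3 of the 10 higher and 0 lower, against 6.91% and 26.7% of all genes; the gene it did not call was HAS1. The 4 genes that rose were 2 synthases and both matrix binders, whereas CD44, LAYN, HYAL1, HYAL2, CEMIP and HAS3 did not pass the test. The median log2 fold change of the 10 genes was 0.52, against -0.25 over all tested genes and 0.22 over the 13319 tested genes with a symbol. The GFP-HI and GFP-NEG values did not overlap in 5 of the 10 genes where GFP-HI was higher and in 2 where it was lower, against 27.7% and 42% of all tested genes.

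**Figure D1:**
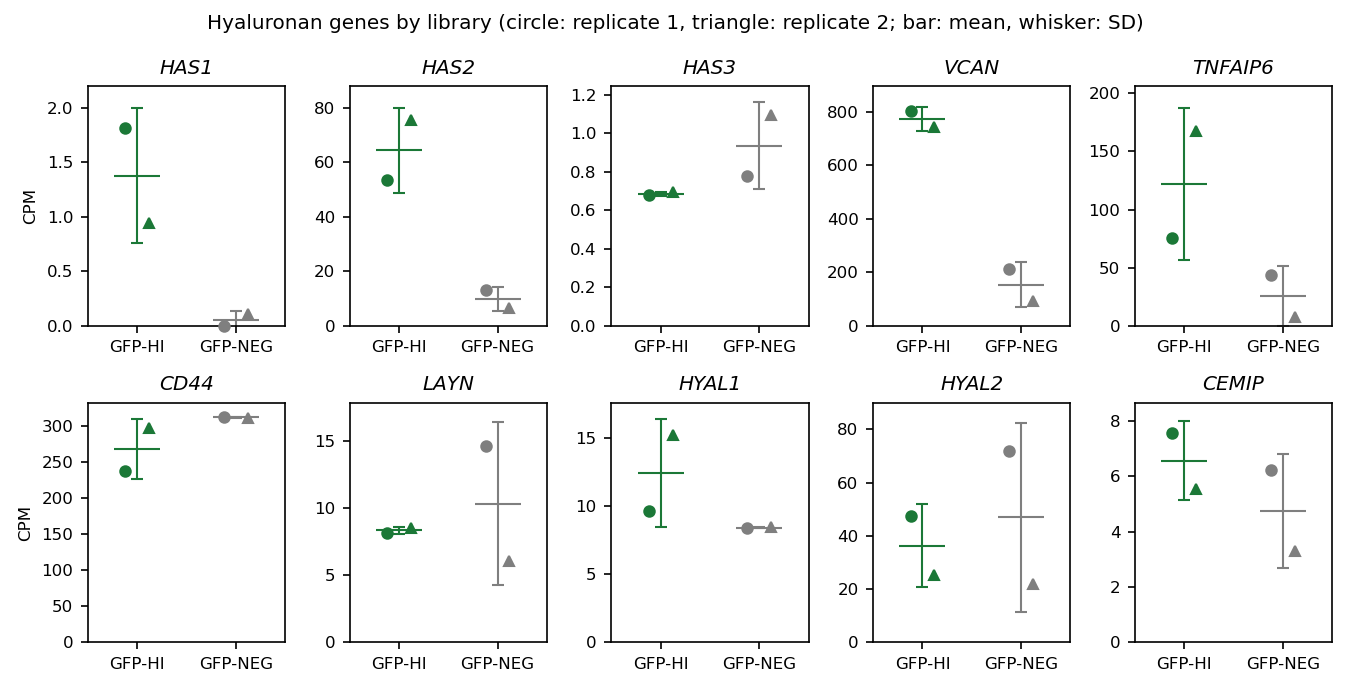
Each panel plots 1 gene in CPM on a linear axis from 0, with circles for replicate 1, triangles for replicate 2, a bar for the mean and a whisker for the SD (n = 2). HAS2 and VCAN in GFP-HI lie at 53.3 CPM or more and 741 CPM or more, above every GFP-NEG library, while LAYN, HYAL2 and CEMIP overlap between the fractions.

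HAS2, the synthase that makes most matrix hyaluronan in many mesenchymal tissues, was at 53.3 and 75.4 CPM in GFP-HI versus 13.0 and 6.69 CPM in GFP-NEG. Both GFP-HI libraries stood above both GFP-NEG libraries. The means were 64.3 ± 15.6 CPM and 9.86 ± 4.49 CPM (SD, n = 2 in each group), and the fold change was 2.71 in log2 (standard error 0.55), or 6.55-fold (adjusted p of 2.3e-05, edgeR). The authors' deposited table gives 2.71 and an adjusted p of 9.1e-05 for the same gene. HAS2 kept its call in each of the 13 alternative fits, including the 4 that left out 1 library, with log2 fold changes from 2.26 to 3.32. It was higher in GFP-HI within both replicates, by 2.02 in replicate 1 and 3.47 in replicate 2 on the log2 CPM scale.

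HAS1, a second synthase, was sparse. Its counts were 40 and 19 in GFP-HI versus 0 and 1 in GFP-NEG, or 1.81, 0.942, 0 and 0.110 CPM. A count of 0 in GFP-NEG replicate 1 allows up to 0.466 CPM there, which is below both GFP-HI values. The summed counts gave a ratio of 21.7 with a 95% exact interval of 3.75 to 873, which covers counting error only. Its call (adjusted p of 0.026, edgeR) was kept in 1 of the 10 alternatives that tested it, RLE scaling (adjusted p of 0.032, edgeR). It was not past the threshold with the replicate number as a block (adjusted p of 0.14), under DESeq2 (0.11) or in 7 other alternatives. In the remaining alternatives HAS1 was not tested, and it is not in the authors' deposited table. HAS3, the third synthase, had counts of 15 and 14 in GFP-HI versus 5 and 10 in GFP-NEG. That is 0.680 and 0.694 CPM against 0.776 and 1.10 CPM, a log2 fold change of -0.45 with a standard error of 1.19 (adjusted p of 0.81, edgeR). The 95% exact interval of its ratio of summed counts was 0.370 to 1.43, so neither direction was resolved at this depth.

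VCAN encodes versican, a large chondroitin sulfate proteoglycan that binds hyaluronan through its head domain. It was at 803 and 741 CPM in GFP-HI versus 214 and 94.6 CPM in GFP-NEG, with means of 772 ± 43.5 and 154 ± 84.3 CPM (SD, n = 2). The GFP-HI libraries were close to each other, and the lower of them was above the higher GFP-NEG library. The log2 fold change of 2.32 (standard error 0.76, 5.01-fold) had an adjusted p of 0.0080 (edgeR). It was 1.81 (adjusted p of 0.32) without GFP-NEG replicate 2, the 1 alternative in which the call was lost, and 3.08 without GFP-NEG replicate 1. The authors' deposited table gives 2.32 and an adjusted p of 2.7e-04.

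TNFAIP6, whose product TSG-6 loads heavy chains onto hyaluronan and is known as an inflammation-induced gene, was at 75.8 and 168 CPM in GFP-HI versus 44.1 and 7.34 CPM in GFP-NEG. The groups did not overlap, but the libraries within each group differed by more than for HAS2 or VCAN. The log2 fold change was 2.25 (standard error 0.55, 4.76-fold, adjusted p of 3.1e-04, edgeR). DESeq2 gave 2.22 with a larger standard error of 0.74 and an adjusted p of 0.010. In the authors' deposited table the values are 2.25 and an adjusted p of 0.011. Replicate 1 differed by 0.78 log2 CPM between the fractions and replicate 2 by 4.49. The fold change was 4.10 without GFP-NEG replicate 1, and the call was lost without GFP-HI replicate 2 (1.60, adjusted p of 0.13) or GFP-NEG replicate 2 (1.43, adjusted p of 0.33).

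**Figure D2:**
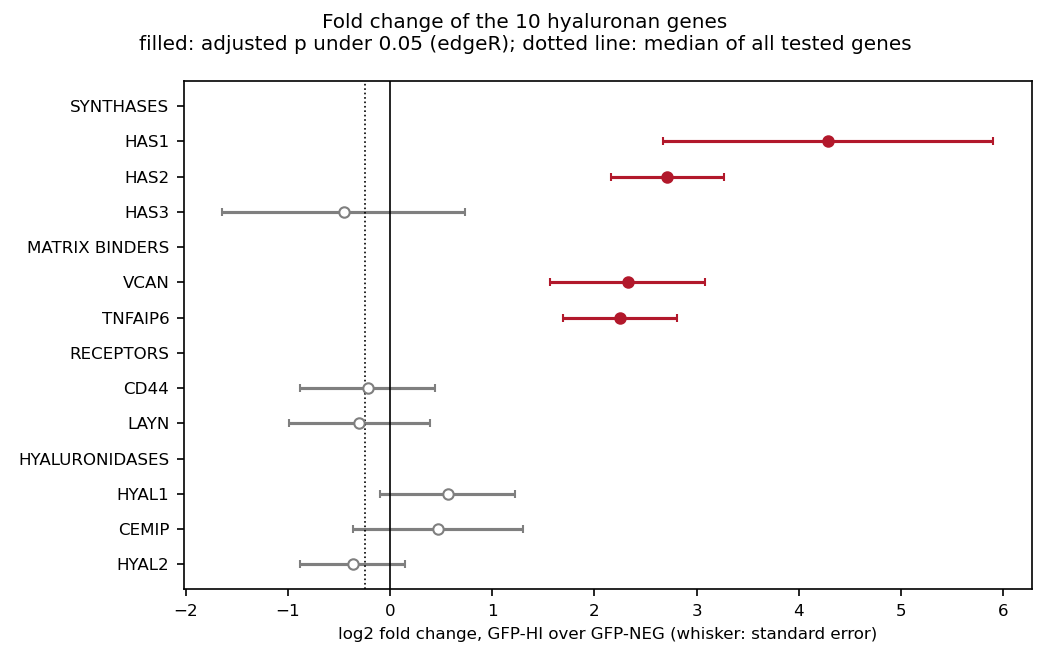
Points are log2 fold changes of GFP-HI over GFP-NEG from edgeR with their standard errors, grouped by role, and the dotted line is the median of all tested genes (-0.25). The 4 filled points, HAS1, HAS2, VCAN and TNFAIP6, lie between 2.25 and 4.29, and the 6 open points lie between -0.45 and 0.56.

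CD44, the main cell-surface receptor for hyaluronan and also a widely used leukocyte antigen, was abundant in every library. It was at 239 and 297 CPM in GFP-HI versus 313 and 312 CPM in GFP-NEG, and its log2 fold change was -0.22 (standard error 0.66, adjusted p of 0.83, edgeR). Its GFP-HI values were both lower, by less than the standard error of the difference. Gene-level counts do not separate its splice forms. LAYN, a second receptor with a lectin-like fold, was at 8.16 and 8.53 CPM in GFP-HI versus 14.6 and 6.03 CPM in GFP-NEG, so that both GFP-HI values lay between the GFP-NEG values (log2 fold change -0.30, standard error 0.69, adjusted p of 0.78, edgeR).

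The 3 breakdown genes did not pass the test either. HYAL2, a membrane-anchored hyaluronidase that cuts long chains, was at 47.3 and 25.4 CPM in GFP-HI versus 71.9 and 21.9 CPM in GFP-NEG. Both fractions spanned a wide range, and replicate 1 was the higher library in each. Its log2 fold change was -0.36 (standard error 0.51, adjusted p of 0.62, edgeR), and the sign was positive without GFP-NEG replicate 1 (0.78) or GFP-HI replicate 2 (0.06). HYAL1, the lysosomal hyaluronidase, was at 9.65 and 15.2 CPM against 8.38 and 8.44 CPM, with a log2 value of 0.56 (standard error 0.66, adjusted p of 0.55, edgeR). CEMIP, a secreted hyaluronan-binding protein needed for breakdown in fibroblasts, was at 7.57 and 5.55 CPM against 6.21 and 3.29 CPM (0.47, standard error 0.83, adjusted p of 0.70, edgeR). HYAL1 did not overlap between the fractions, and CEMIP did.

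Ratios of counts within 1 library do not depend on how the libraries are scaled. They are not per length, so only their change between libraries is read here. HAS2 counts per HYAL2 count were 1.13 and 2.97 in GFP-HI versus 0.181 and 0.305 in GFP-NEG, 6.20 times as high in GFP-HI in replicate 1 and 9.74 times in replicate 2. VCAN counts per CD44 count were 3.36 and 2.49 in GFP-HI versus 0.684 and 0.303 in GFP-NEG. With the 3 synthases summed over HYAL1, HYAL2 and CEMIP, the ratio was 0.864 and 1.67 in GFP-HI against 0.160 and 0.235 in GFP-NEG. In each of these ratios both GFP-HI libraries stood above both GFP-NEG libraries. The ratios reuse counts of genes already described, so they restate those differences free of scaling and are not separate evidence. HAS2 and HYAL2 held most counts of the summed ratio. With 2 libraries a group, the smallest two-sided p an exact permutation test can give is 0.333, so no test was run on the ratios.

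Because the fractions differed in fibroblast markers, the genes were also set against those markers within each library, a comparison chosen after the values had been seen. VCAN amounted to 10.2 and 10.8 CPM per 1000 CPM of the 8 summed markers in GFP-HI versus 8.50 and 10.5 in GFP-NEG. On this scale the VCAN groups overlapped. HAS2 overlapped as well, at 0.674 and 1.10 in GFP-HI against 0.518 and 0.746 in GFP-NEG, and so did TNFAIP6, at 0.960 and 2.44 against 1.75 and 0.819. CD44 was at 3.02 and 4.32 per 1000 CPM in GFP-HI versus 12.4 and 34.8 in GFP-NEG, and HAS3, LAYN, HYAL1, HYAL2 and CEMIP also had both GFP-HI values below both GFP-NEG values. HAS1 went the other way, at 0.0229 and 0.0137 versus 0 and 0.0122, and overlapped when set against the geometric mean of the markers. The marker sum was larger in GFP-HI, so a gene level between the fractions comes out lower on this scale by construction. The values of CD44, HAS3, LAYN, HYAL1, HYAL2 and CEMIP on it are therefore not separate evidence of a fall. The share of all tested genes that fall on this scale is not given here. All 8 markers had both GFP-HI values above both GFP-NEG values, and 5 passed the edgeR test, against 27.7% and 8.35% of all tested genes. The 3 collagens did not pass (adjusted p of 0.29 to 0.46, edgeR) and made up 74.0% to 94.1% of the marker sum. With the geometric mean of the 8 markers in its place, HAS2 and TNFAIP6 again overlapped and VCAN was lower in both GFP-HI libraries, at 20.2% and 19.4% of that mean against 21.5% and 38.6%. Whether the fibroblast content of the fractions accounts for the rise of HAS2, VCAN and TNFAIP6 was not tested.

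The 2 GFP-NEG libraries differed from each other in the same genes. Among the 10 genes, 7 were higher in GFP-NEG replicate 1 than in replicate 2, against 44.8% of all tested genes. TNFAIP6 was 6.0 times as high in replicate 1, HYAL2 3.28 times, LAYN 2.42 times, VCAN 2.26 times, HAS2 1.95 times and CEMIP 1.89 times, and CD44, counted among the 7, was level between them (1.00 times). The 8 fibroblast markers were all higher in that library, 1.95 to 20.8 times as high, and their sum was 2.80 times as high. Leaving out GFP-NEG replicate 1 gave larger fold changes for HAS2, VCAN and TNFAIP6, and leaving out GFP-NEG replicate 2 gave smaller ones.

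**Figure D3:**
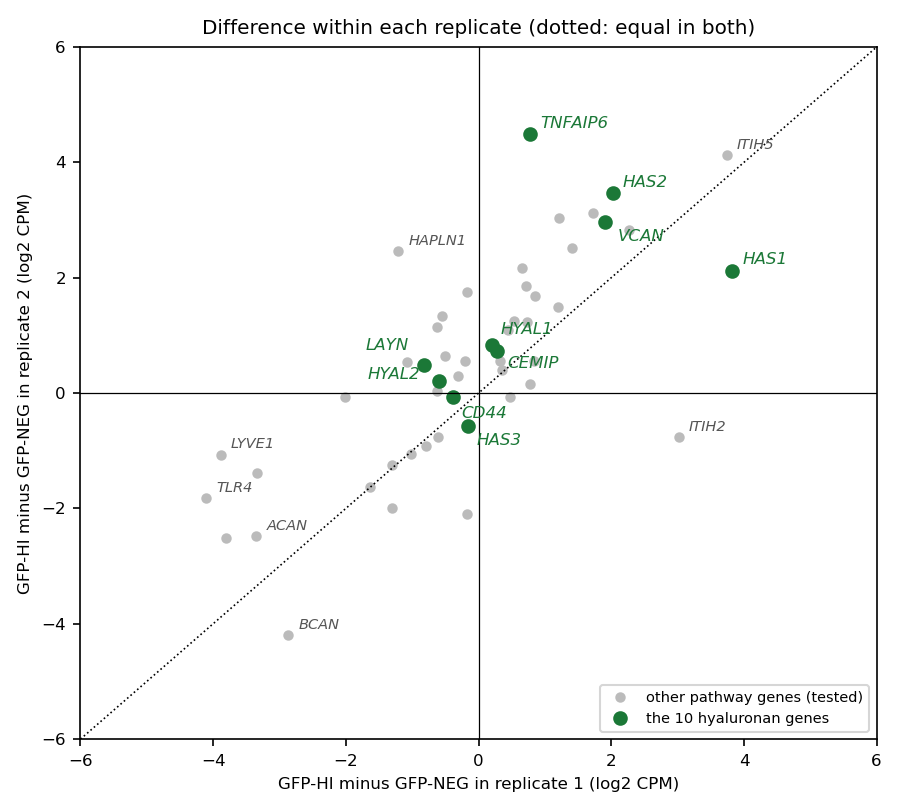
Each point is 1 gene, placed by its log2 CPM in GFP-HI less that in GFP-NEG within replicate 1 (horizontal axis) and replicate 2 (vertical axis), with the 10 genes in green and tested genes of the wider pathway in grey. HAS1, HAS2, VCAN and TNFAIP6 lie above 0 on both axes, and TNFAIP6 lies farthest from the dotted line of equal differences among the 10 (0.78 and 4.49).

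A wider list of 47 hyaluronan pathway genes was taken as context, of which 46 had a matched row (STAB2 had none) and 42 passed the filter. Of these, 7 were higher and 10 lower in GFP-HI, or 6 and 9 under DESeq2, and their median log2 fold change was 0.17. Of all tested genes, 8.35% were higher and 27.6% lower with edgeR (6.91% and 26.7% with DESeq2). In these fits the share of lower calls was thus near that of all genes, and the share of higher calls was above that of all genes. In the authors' deposited table, 8.20% of genes were higher and 11.2% lower, and the calls of the list were not counted there. The median of the list was near the 0.22 of genes with a symbol and above the -0.25 of all genes. Whether the shares differ was not tested. Fits without 1 library lost many of these calls: TLR2, TLR4, ACAN and ITIH5 passed in each of the 4, and CEMIP2, STAB1, BCAN, ADAMTS5 and EZR passed in none. Without GFP-NEG replicate 2, PGM3 (adjusted p of 0.12), PTX3 (0.075), ADAMTS9 (0.63) and MMP14 (0.52) did not pass, and without GFP-NEG replicate 1, LYVE1 (0.27) and ITIH4 (0.11) did not (edgeR). Leaving out GFP-HI replicate 1 also ended the calls of LYVE1 (0.064), ADAMTS9 (0.20), MMP14 (0.14) and HAPLN3 (0.13), and leaving out GFP-HI replicate 2 those of ADAMTS9 (0.061) and HAPLN3 (0.31).

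Hyaluronan precursors are made by 7 listed enzymes of the UDP-sugar pathways, and 1 of them rose. PGM3, which makes N-acetylglucosamine 1-phosphate, was at 43.9 and 55.4 CPM in GFP-HI versus 13.2 and 6.25 CPM in GFP-NEG, and its log2 fold change was 2.36 (standard error 0.55, adjusted p of 1.8e-04, edgeR). Per 1000 CPM of the summed fibroblast markers its groups overlapped, at 0.556 and 0.805 versus 0.525 and 0.697. UGDH, which makes UDP-glucuronic acid, was at 117 and 129 CPM against 65.1 and 40.3 CPM. Its groups did not overlap, but its log2 fold change of 1.23 did not pass the threshold (adjusted p of 0.067, edgeR). GFPT1 and UAP1 also had both GFP-HI values above both GFP-NEG values without passing the test. GFPT2 passed with the replicate number as a block (log2 fold change 1.41, adjusted p of 0.039) and not without it (1.04, adjusted p of 0.11, edgeR). UGP2, at -0.01, and GNPNAT1, at 0.06, were near 0.

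Of the further breakdown genes, CEMIP2, a membrane protein related to CEMIP, was lower, at 40.4 and 28.4 CPM in GFP-HI versus 126 and 88.4 CPM in GFP-NEG (-1.64, adjusted p of 0.0087, edgeR). Its difference within replicate 1 was -1.63, and within replicate 2 it was nearly the same. HYAL3, HYAL4, HEXA and GUSB did not pass, and SPAM1, the sperm hyaluronidase, had 0 counts in both GFP-HI libraries versus 1 and 31 in GFP-NEG, below the filter. HEXA was at 397 and 611 CPM in GFP-HI versus 242 and 169 CPM in GFP-NEG (1.29, adjusted p of 0.14, edgeR). For HEXA the authors' deposited table gives 1.29 and an adjusted p of 0.040, which is past the threshold.

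Among the further receptors, 4 of the 5 tested genes fell and none rose, where 27.6% of all tested genes were lower. TLR4 and TLR2, innate immune receptors that can respond to hyaluronan fragments, had log2 fold changes of -3.35 and -3.25 (adjusted p of 6.7e-06 and 9.8e-06, edgeR). TLR4 was at 26.0 and 28.0 CPM in GFP-HI versus 451 and 99.4 CPM in GFP-NEG. LYVE1, the hyaluronan receptor of lymphatic endothelium, was at 2.22 and 4.07 CPM in GFP-HI versus 34.8 and 8.66 CPM in GFP-NEG (-2.78, adjusted p of 2.1e-04, edgeR). STAB1, a scavenger receptor of macrophages and sinusoidal endothelium, fell as well (-1.29, adjusted p of 0.039, edgeR), but near the threshold. Its adjusted p was 0.071 with no filter on low counts (edgeR) and 0.063 in DESeq2 with the replicate block. The authors' deposited table gives 0.053 for it. HMMR, an intracellular and surface hyaluronan-binding protein tied to the mitotic spindle, did not pass the test (0.39). Leukocyte and endothelial markers moved with these receptors: 4 of 7 macrophage markers, 4 of 4 neutrophil markers with a row, 6 of 7 lymphocyte markers and 6 of 6 blood endothelial markers were lower in GFP-HI. Of the 5 lymphatic endothelial markers, which include LYVE1 itself, FLT4 and CCL21 were lower too, PROX1 did not pass and PDPN was higher (log2 fold change 2.33). Their sum was 62.5 and 104.997 CPM in GFP-HI versus 319 and 124 CPM in GFP-NEG. The summed macrophage markers were at 186 and 188 CPM in GFP-HI versus 865 and 670 CPM in GFP-NEG, the blood endothelial markers at 175 and 174 CPM against 1275 and 543 CPM, and no marker of these lists was at 0 in all libraries. The part of these cells in the receptor values was not tested.

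The other hyaluronan-binding proteoglycans and the link proteins did not follow VCAN. ACAN, which encodes aggrecan of cartilage, was at 16.6 and 7.34 CPM in GFP-HI versus 171 and 41.7 CPM in GFP-NEG (-3.15, adjusted p of 1.0e-06, edgeR). HAPLN3, a link protein gene that lies next to ACAN in the RefSeq annotation, also fell (-1.50, adjusted p of 0.014, edgeR), but its groups overlapped, its adjusted p was 0.13 with the replicate number as a block, and its sign turned without GFP-NEG replicate 1 (0.30). HAPLN1, the link protein gene next to VCAN, was at 97.9 and 158 CPM in GFP-HI versus 227 and 28.7 CPM in GFP-NEG, and its log2 fold change was 0.01 (adjusted p of 0.995, edgeR). HAPLN1 was thus 1.21 log2 units lower in GFP-HI in replicate 1 and 2.46 higher in replicate 2, whereas VCAN was higher in both. The brain lectican BCAN had 3 and 0 counts in GFP-HI against 12 and 22 in GFP-NEG and was called lower (adjusted p of 0.0041, edgeR). NCAN, below the filter, had 0 and 0 counts in GFP-HI against 2 and 31 in GFP-NEG. More genes had a count in the GFP-NEG libraries despite their lower depth. The part of this in such low counts, those of SPAM1 among them, was not tested.

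Heavy chains and their partners held the largest rise on the list. ITIH5, an inter-alpha-trypsin inhibitor heavy chain, was at 2369 and 1480 CPM in GFP-HI versus 177 and 84.7 CPM in GFP-NEG, and its log2 fold change was 3.88 (standard error 0.96, adjusted p of 3.2e-04, edgeR). Set against the 8 summed fibroblast markers, ITIH5 was higher in both GFP-HI libraries, at 30.0 and 21.5 CPM per 1000 CPM against 7.05 and 9.45. Against their geometric mean the gap was narrower, at 59.7% and 38.6% versus 17.9% and 34.5%. PTX3, a pentraxin that ties heavy chains and TSG-6 into hyaluronan matrix, was at 48.5 and 37.4 CPM in GFP-HI versus 9.94 and 5.15 CPM in GFP-NEG (2.52, adjusted p of 1.3e-04, edgeR), and on the fibroblast scale its groups overlapped. ITIH4 fell (-2.59, adjusted p of 7.9e-05, edgeR). ITIH2, whose gene lies next to ITIH5, had 160 counts in GFP-HI replicate 1 and 8, 5 and 7 counts in the other libraries, and did not pass the test. AMBP, which encodes the light chain bikunin, was too low to be tested.

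Proteases that cut versican were partly higher. ADAMTS9 (1.67, adjusted p of 0.0076, edgeR) and ADAMTS5 (1.33, adjusted p of 0.043, edgeR) passed the test, and neither passed under DESeq2 (adjusted p of 0.078 and 0.070). ADAMTS5 lost its call in 10 of 13 alternatives. ADAMTS1, ADAMTS4, ADAMTS15 and ADAMTS20 did not pass. Of the genes that anchor or shed CD44, MMP14, a membrane protease, was higher (1.74, adjusted p of 0.0044, edgeR). EZR, which links CD44 to actin, was lower, at 181 and 160 CPM against 448 and 642 CPM (-1.68, adjusted p of 0.048, edgeR). MSN, RDX, ADAM10, ADAM17 and SPP1 did not pass the test.

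**Figure D4:**
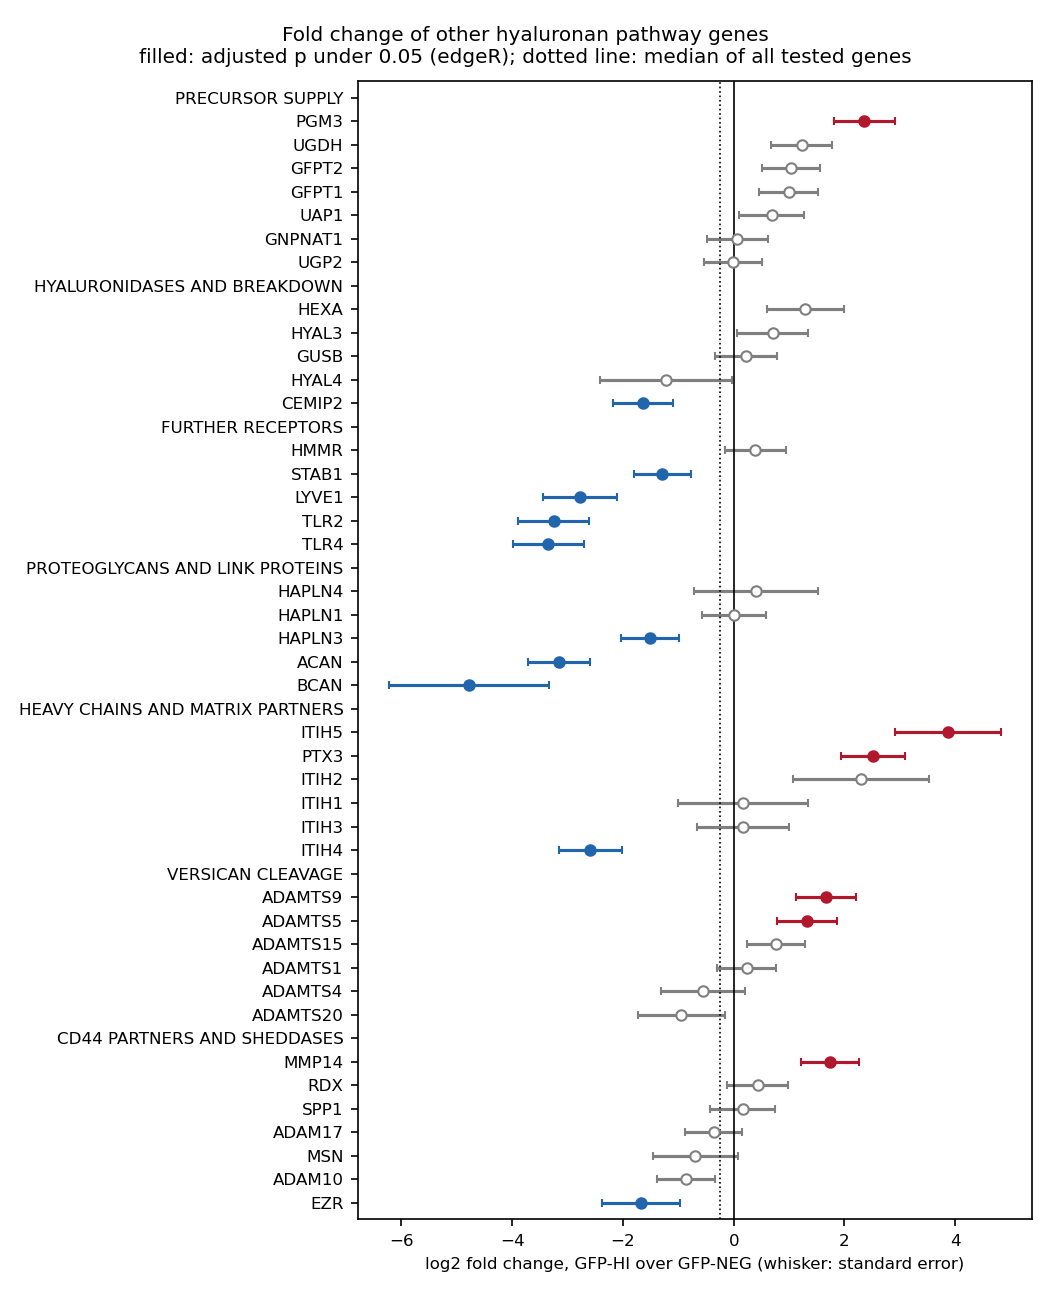
Points are edgeR log2 fold changes of GFP-HI over GFP-NEG with standard errors for tested pathway genes by role, red where higher and blue where lower at an adjusted p under 0.05, and open grey otherwise. The receptor row block holds 4 blue points between -3.35 and -1.29, and ITIH5 at 3.88 is the point farthest to the right.

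The profiles most like those of 4 of the genes were sought among 9246 genes with a symbol and a mean of at least 10 CPM, by Euclidean distance of log2 CPM centred on each gene's mean over the 4 libraries. For HAS2 the nearest were CAMK2N1 (distance 0.11), RASSF8 (0.20) and DCLK1 (0.23). The genes near VCAN included MKS1 (0.088) and the Wnt5a receptor gene ROR1 (0.15), the latter at 44.0 and 36.4 CPM in GFP-HI versus 11.8 and 5.15 CPM in GFP-NEG. CD44 was nearest to ELOVL1, HAUS8 and AP1S1 (0.043 to 0.078). HAS1, with its few counts, was nearest to MEGF10, ACAP3 and GRID1 at larger distances (0.45 to 0.55). With 4 libraries these distances describe likeness only.

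**Figure D5:**
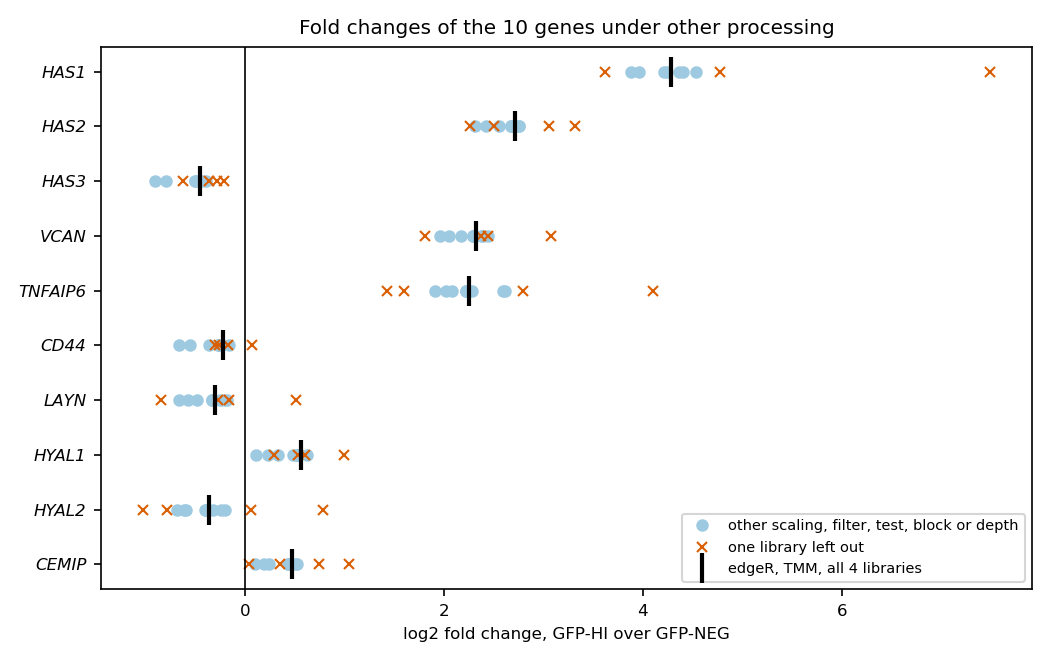
Log2 fold changes of the 10 genes with all 4 libraries and edgeR (black bar), under other scaling, filters, tests, blocks or depth (circles) and with 1 library left out (crosses). HAS2, VCAN and TNFAIP6 lie at 1.43 or more in every fit shown, and crosses of CD44, LAYN and HYAL2 fall on both sides of 0.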

How the data were processed

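Gene expression was measured in 4 libraries. The authors deposited a raw count per gene and library and a table of their comparison with a log2 fold change, a test statistic (score), p-values and normalized counts (a linear signal, per the file headers). That table's count columns repeat the single-library counts. Its 4 per-library normalized columns were not used, because 2 of their headings do not match the library whose counts the column scales. The submitters' processing notes name featureCounts, Subread 1.5.2 and DESeq2 1.37.6. The aligner settings, strand setting and build are not given in the sources used here, so overlapping and antisense genes are uncertain. Every row names a gene.

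Counts were tested with edgeR 4.0.16 (R 4.3.3, quasi-likelihood F test, TMM scaling, filterByExpr, group as the only term), with Benjamini-Hochberg adjustment over 19682 tested genes, which held 99.8% of counts. CPM are counts over the tested total times the TMM factor. The standard error is the fold change over the square root of F. Log2 CPM used a prior count of 2. The procedure was tested on simulated data. Alternatives were RLE, upper-quartile and no scaling, no filter, at least 1 CPM in 2 libraries, DESeq2 1.42.0, the replicate number as a block, GFP-HI thinned to the GFP-NEG depth, and each library left out. The deposited headings name pig 1 and pig 2 in both fractions, so the numbers were taken to pair fractions of 1 animal. Because 2 of these headings do not match their library, that pairing is uncertain. The differences within replicates and the fits with the replicate block rest on it. Deviations of same-numbered libraries correlated at 0.16 across genes. P-values rest on the spread between these libraries, but each gene's dispersion was drawn toward that of other genes. They therefore do not follow a gene's own replicates alone. Intervals cover counting error only.

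The 10 genes, the pathway list and the marker lists were chosen with earlier results of these data known. Named genes are the 10, LGR5, called pathway genes and members of described roles, and the 3 nearest profiles of HAS1, HAS2, VCAN and CD44. Of the genes this rule names, 2 are not reported here. Of 844 identifiers with a symbol in the gene name table, 834 were renamed, HEXA among them.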

Additional observations from a re-analysis of the deposited data

How the results depend on the processing

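Of the 10 genes, 4 were higher with all libraries, 3 to 4 in the other fits with all libraries (3 with the replicate block) and 1 to 3 when 1 library was left out, and none was lower in any fit. The fits with 1 library left out assume that the lone library of its group varies like the other group. They gave 1 to 9 higher and 4 to 6 lower genes of the pathway list, against 7 and 10, and 216 to 1635 higher and 1575 to 4999 lower genes in all, against 1643 and 5433. Higher genes in all numbered 1083 under upper-quartile scaling and 888 under library size alone, where they made up 16.1% and 13.4% of the calls against 23.2%. Lower genes numbered 3153 in DESeq2 with the replicate block and 3557 with GFP-HI thinned. The median of all genes moved to -0.58 and -0.68 under upper-quartile scaling and library size alone. Signs turned when 1 library was left out: CD44 ran from -0.30 (without GFP-HI replicate 2) to 0.071 (without GFP-HI replicate 1), LAYN from -0.84 to 0.52 and HYAL2 from -1.02 to 0.78 (GFP-NEG replicate 2 or 1 left out; 0.06 with GFP-HI replicate 2 left out), and HAPLN3 from -2.31 to 0.30 (GFP-NEG replicate 2 or 1 left out). The cause was not tested. With edgeR, the replicate block ended the calls of HAS1 and HAPLN3, gave one to GFPT2 and changed no other call among the 10 genes and the pathway list. The shallow GFP-NEG libraries limit HAS1 and HAS3.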
